A study of Homo sapiens with 8 samples.

Results

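The genes of cholesterol and fatty acid synthesis were examined as a list of 31 symbols, together with the proteins that set their transcription, chosen by role with earlier results of these data known. All 31 had a row in both deposited tables, which hold 23621 gene rows, and all 31 were among the 11465 genes with a mean of at least 1 normalized FPKM. FPKM is the number of sequenced fragments scaled to transcript length and to the mapped fragments of a library, so levels of different genes can be compared per length. The list holds 8 genes of the mevalonate and isoprenoid steps, 9 genes that turn isoprenoids into squalene and then cholesterol, 5 regulators of the SREBP system, 1 sterol carrier and 8 genes of fatty acid synthesis. Poly(A) RNA was sequenced from NALM6, a long-established line of human acute lymphoblastic leukemia of B-cell precursors, in which doxycycline induces a construct for HMGN1, a protein that binds nucleosomes. The 8 libraries form 4 groups of 2. The SE DOX group carried HMGN1 with the S20,24E mutation, which abolishes nucleosome binding, and received doxycycline at 100 ng/ml for 6 hours. The SE vehicle group carried the same mutant and received vehicle for 6 hours. The WT DOX group carried wild-type HMGN1 and received the same doxycycline dose for 6 hours, and the WT vehicle group carried wild-type HMGN1 and received vehicle. Each group has a culture A and a culture B, which the labels call biological replicates. No library from cells without a construct was analysed here, and anything else in which SE and WT cells differed cannot be told apart from the construct.

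Cholesterol is built from acetyl-CoA through mevalonate and isoprenoid pyrophosphates to squalene, which is oxidized, closed into lanosterol and trimmed to cholesterol in the endoplasmic reticulum. Fatty acid synthesis starts from the same acetyl-CoA, which is carboxylated to malonyl-CoA and then chained, lengthened and desaturated. Both routes are controlled by SREBP transcription factors: when sterols are scarce, SCAP escorts the SREBP precursors from the endoplasmic reticulum to the Golgi, where proteases release the active factor, and INSIG proteins hold SCAP back when sterols are plentiful. Dividing leukemic B cells need sterols and fatty acids for new membranes, and the isoprenoid branch also supplies the lipid anchors of small GTPases.

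The promoters of the genes on which the results below turn are printed from RefSeq (build GRCh38.p14, while the deposited tables were made on hg19), as the 250 bases before the start of transcription. RefSeq promoters were matched for 27 of the 31 genes. SREBF2 is shown because its window was the only member window with the SREBP consensus TCACNCCAC, HMGCS1 and ELOVL6 because their unnormalized levels differed most between the WT cultures and in opposite directions, and TM7SF2 because it was lower in SE than in WT in every library of both tables. Letters in capitals are matches on either strand to the SREBP consensus, to the CCAAT box (spelled CCAAT) or to the GC box (spelled GGGCGG), so a match on the opposite strand reads as the reverse complement, and no base lay in a match to more than 1 of the motifs.
SREBF2, chr22:41832855-41833104, plus strand: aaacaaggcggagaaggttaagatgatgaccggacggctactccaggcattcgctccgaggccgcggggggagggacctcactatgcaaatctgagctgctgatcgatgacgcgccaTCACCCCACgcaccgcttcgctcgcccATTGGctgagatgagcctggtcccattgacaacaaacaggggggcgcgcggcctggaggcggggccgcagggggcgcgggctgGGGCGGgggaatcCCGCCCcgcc
HMGCS1, chr5:43313413-43313662, minus strand: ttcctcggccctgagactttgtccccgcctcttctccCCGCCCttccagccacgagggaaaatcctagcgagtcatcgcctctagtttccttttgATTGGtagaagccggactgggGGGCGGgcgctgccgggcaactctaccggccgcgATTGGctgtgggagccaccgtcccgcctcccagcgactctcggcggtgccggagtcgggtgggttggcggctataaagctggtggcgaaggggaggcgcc
TM7SF2, chr11:65111622-65111871, plus strand: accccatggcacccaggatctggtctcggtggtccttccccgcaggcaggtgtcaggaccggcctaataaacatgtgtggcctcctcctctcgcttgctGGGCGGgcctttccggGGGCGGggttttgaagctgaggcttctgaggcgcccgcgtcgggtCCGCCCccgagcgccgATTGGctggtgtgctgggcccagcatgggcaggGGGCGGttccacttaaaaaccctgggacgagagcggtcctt
ELOVL6, chr4:110198616-110198865, minus strand: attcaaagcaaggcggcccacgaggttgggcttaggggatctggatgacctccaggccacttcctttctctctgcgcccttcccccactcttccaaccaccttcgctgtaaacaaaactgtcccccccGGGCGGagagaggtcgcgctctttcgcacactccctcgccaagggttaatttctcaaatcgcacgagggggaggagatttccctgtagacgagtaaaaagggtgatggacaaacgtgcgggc
The SREBP consensus in SREBF2 starts 133 bases before the start of transcription and reads TCACCCCAC. Counting the first window of each gene, 1 of 27 member promoters held this consensus, against 0.875% of 27305 promoters. CCAAT stood in 16 of 27 member promoters, against 33.0% of all, and GGGCGG in 24 of 27, against 42.3% of all. The SREBF2, HMGCS1 and TM7SF2 windows each hold both a CCAAT and a GC box match, while the ELOVL6 window holds 1 GC box and no CCAAT. These are letter matches and were not tested as binding sites.

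Depth is unknown for these libraries, since FPKM tables hold no counts, and intervals for counting error are not given. ERCC spike-ins, synthetic RNAs added in equal amount to the RNA of equal cell numbers, took 0.719 to 1.06% of the unnormalized values in SE libraries and 0.531 to 0.569% in WT libraries, with the highest share in SE DOX A. The normalized table multiplied a typical gene by 0.705 in SE DOX A, 0.912 in SE DOX B, 0.902 in SE vehicle A and 0.998 in SE vehicle B, against 1.25 in WT DOX A, 1.06 in WT DOX B, 1.27 in WT vehicle A and 1.09 in WT vehicle B. Spike-in sums ran from 7049.9 to 7166 in the normalized table, which thus compares levels per amount of spike-in, and the unnormalized table compares shares within a library. Fewer cells and less RNA per cell cannot be told apart in these bulk samples. HMGN1 itself stood at 1421 and 1061 unnormalized FPKM in SE DOX cultures A and B and at 1427 and 1066 in SE vehicle, against 792.9 and 795.3 in WT DOX and 809.2 and 796.0 in WT vehicle. It was thus not higher with DOX in any same-letter pair of that table. A MIR1244 row alone took 18.9 to 20.3% of the summed unnormalized values in SE libraries and 19.8 to 23.5% in WT libraries. All 10 B-lineage markers were tested, with summed levels of 1941 to 2333 unnormalized FPKM in SE libraries and 2152 to 2403 in WT libraries. CD22, CD79A and MME were lower and DNTT was higher in all 4 SE libraries than in all 4 WT libraries, and the other B-lineage markers overlapped. CD22 ran from 15.7 to 25.4 unnormalized FPKM in SE and from 29.2 to 37.9 in WT libraries. DNTT ran from 242 to 281 in SE libraries, and in WT libraries it was at 129.8 in both A cultures and at 231 and 239 in the B cultures. None of 6 T-cell, 5 erythroid and 5 hepatocyte markers reached the minimum, and of 6 myeloid markers LYZ did, with a mean of 2.18. LYZ was at 1.22 to 1.70 unnormalized FPKM in SE libraries, at 3.96 and 4.62 in the WT A cultures and at 1.68 and 1.56 in the WT B cultures. The part of these marker differences in the results below was not tested.

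All 31 genes were expressed in every library, and per length their mean unnormalized levels spanned 3.74 FPKM for ACSS2 to 129 FPKM for FDPS. FDPS, which makes farnesyl pyrophosphate, was followed by ACLY at 99.6 FPKM, which makes cytosolic acetyl-CoA from citrate, and by IDI1 at 96.9 FPKM, which isomerizes isopentenyl pyrophosphate. Those means stand at the 94.5th, 92.8th and 92.5th percentile of the genes tested. The lowest after ACSS2 were TM7SF2 at 5.32 FPKM, MVK at 6.41 FPKM, INSIG2 at 8.47 FPKM and GGPS1 at 8.98 FPKM. The sum over the 31 genes was 1187 and 1205 unnormalized FPKM in SE DOX cultures A and B and 1205 and 1191 in SE vehicle, against 1067 and 1156 in WT DOX and 1059 and 1160 in WT vehicle. Every SE sum thus lay above every WT sum in this table, and the WT A cultures were the lowest. In the normalized table the order turned round: the sums were 836.4 and 1095 in SE DOX and 1088 and 1182 in SE vehicle, against 1322 and 1218 in WT DOX and 1337 and 1252 in WT vehicle.

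**Figure D1:**
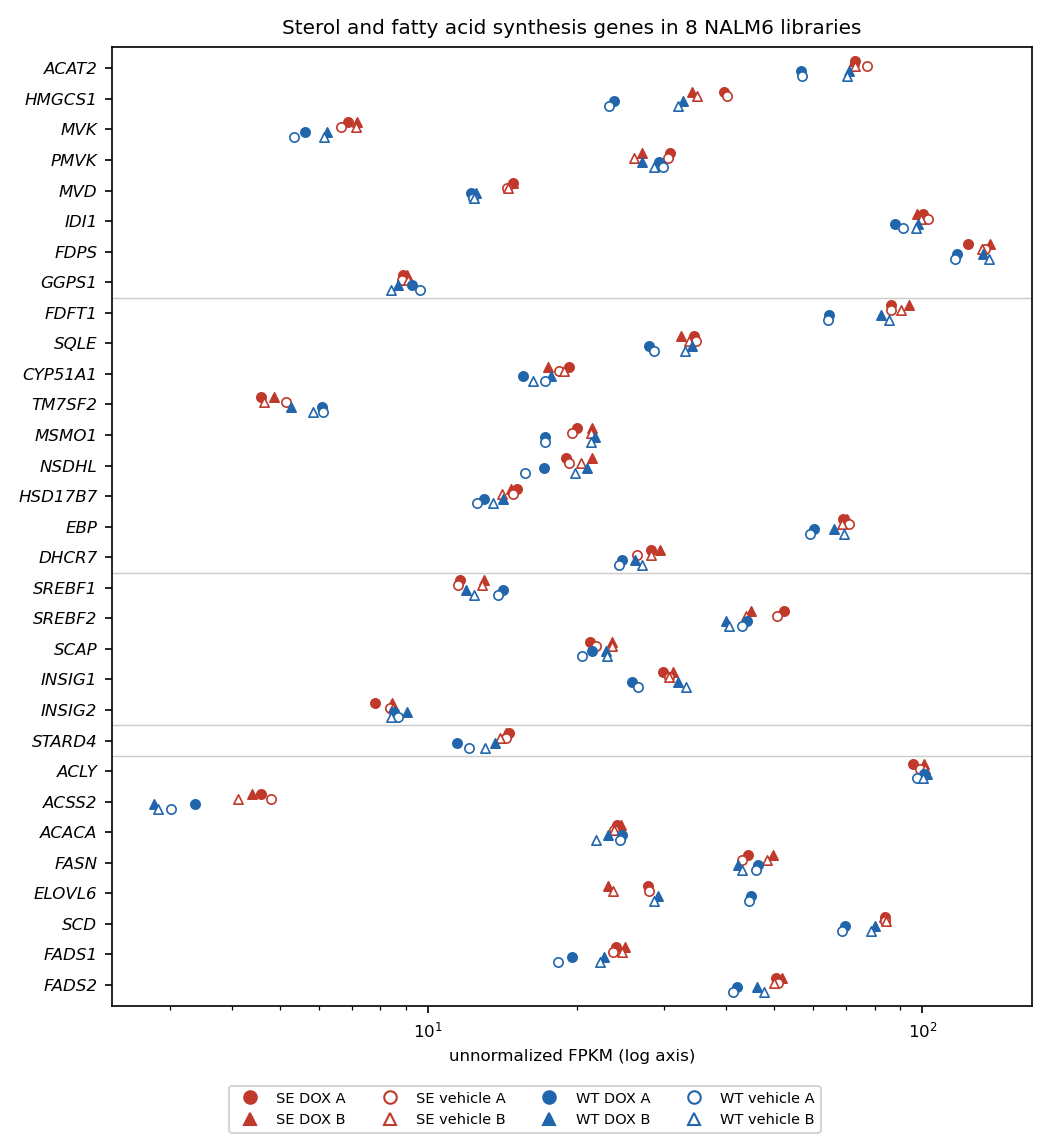
Unnormalized FPKM (log axis) of the 31 genes in the 8 libraries, with SE in red and WT in blue, DOX filled and vehicle open, culture A as circles and culture B as triangles; grey lines part the roles. The genes span 3.74 FPKM (ACSS2) to 129 FPKM (FDPS) on average, and filled and open symbols of the same construct and culture lie close together.

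The first question was whether inducing either HMGN1 changed these genes. No member was called in limma at an adjusted p under 0.05 in DOX against vehicle in SE cells, in WT cells, over both constructs or in the difference of the DOX effects, and no member had an unadjusted p under 0.05 in these comparisons. The share of all genes called was 0.0523% in SE, 0.0698% in WT, 0.0698% over both constructs and 0.0785% for the difference, so few genes of any kind were called. In SE cells all 31 genes had a lower normalized level with DOX, from -0.29 for INSIG2 to -0.16 for DHCR7 on the log2 scale, with a median of -0.23 against -0.24 over all genes tested. In WT cells the members ran from -0.11 for TM7SF2 to 0.071 for NSDHL, with a median of -0.026 against -0.032 over all genes. Over both constructs the median was -0.13 against -0.14 over all genes, and for SE effect minus WT effect -0.22 against -0.21. The members' medians thus lay close to those of the genes tested. With no filter on low values the median of all 23621 genes in SE was -0.16, and 0 of 31 members lay above it. That median includes genes of low level, whose differences are understated by the 0.1 FPKM added to each level. The normalized table also has a floor: MLXIPL, at 0 in every unnormalized library, stood at 0.0948 to 0.105 there. The part of this floor in the median was not tested.

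The lower values in SE DOX were those of whole libraries: in same-letter pairs of the normalized table the members' median was -0.36 in SE culture A and -0.11 in SE culture B, beside -0.35 and -0.13 over all genes other than the 302 rows named after small RNAs. In the unnormalized table the members' median DOX over vehicle ratio was -0.0046 in SE culture A and 0.024 in SE culture B, against 0.016 in WT culture A and 0.015 in WT culture B. No member differed by more than 0.25 on that scale in any of the 4 pairs. Without SE DOX culture A the median of the SE effect was -0.036, and without SE DOX culture B -0.43. With the culture letter as a block (a replicate block), 2 members fell with DOX in SE: INSIG2, which keeps SCAP in the endoplasmic reticulum, at -0.29 (s.e. 0.095, adjusted p = 0.0401), and TM7SF2, a sterol reductase, at -0.29 (s.e. 0.10, adjusted p = 0.0470) in limma. In that fit 14.5% of all genes were called, and with library medians made equal neither gene was.

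With the block, equal library medians and small RNA names left out, DOX effects relative to the library median could be bounded closely. The plot of DOX effects shows them. A shift shared by the genes of a library is taken out by construction here. In the normalized fit without these steps the median 95% interval reached 0.47 to either side in both constructs. With these steps the members ran from -0.048 for INSIG2 to 0.080 for DHCR7, the enzyme of the last step to cholesterol, in SE cells. In WT cells they ran from -0.077 for TM7SF2 to 0.10 for NSDHL, a decarboxylating sterol dehydrogenase. The median 95% interval reached 0.079 to either side in both constructs, and no interval went below -0.23 or above 0.25. DHCR7 in SE and NSDHL in WT had unadjusted p values of 0.0453 and 0.0290, and the lowest adjusted p in limma over the members was 1.00 in both constructs. The median of the difference between the effects was -0.0044, with a median interval of 0.11 to either side.

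**Figure D2:**
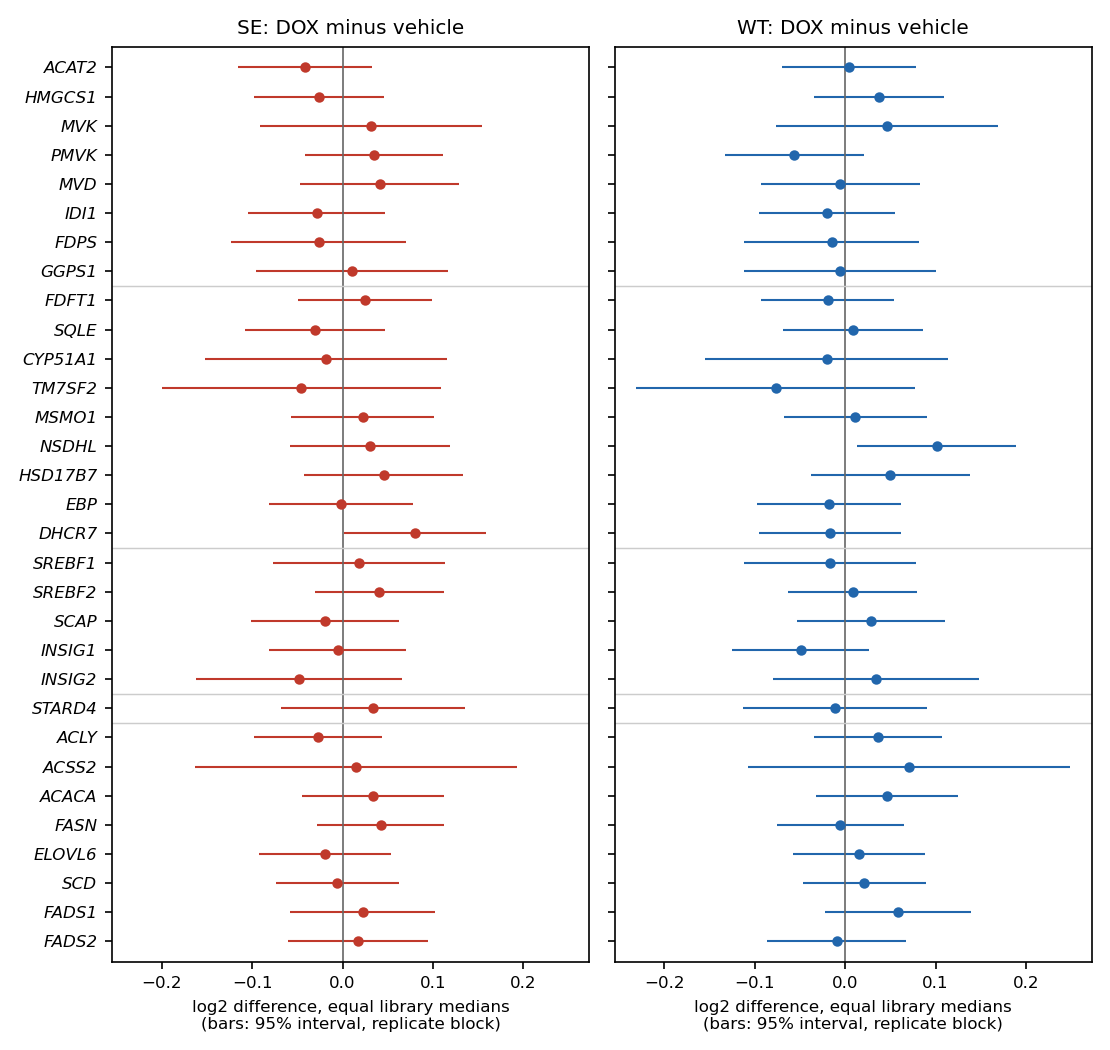
DOX minus vehicle of the 31 genes in SE (left) and WT (right) on the log2 scale, from the fit with the culture letter as a block, equal library medians and small RNA names left out; bars are 95% intervals. The points lie between -0.077 and 0.10, and all but the intervals of DHCR7 in SE and NSDHL in WT cross 0.

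The second question was whether cells with mutant HMGN1 differed from cells with wild-type HMGN1. No member was called in SE against WT, with 8 of 31 at an unadjusted p under 0.05 in DOX and 2 of 31 in vehicle, where 6929 and 816 of all 11465 genes were below it. Of all genes, 0.105% were called in DOX and 0.183% in vehicle. On the normalized scale the members' median difference was -0.40 in DOX, against -0.53 over all genes, and -0.17 in vehicle, against -0.32 over all genes. In each treatment 26 of 31 members lay above the median of all genes, so most had a smaller difference than the typical gene tested. With no filter on low values the median of all 23621 genes was -0.22 in DOX and -0.090 in vehicle. Only 3 and 7 of 31 members lay above it, so this order turns with the filter. The genes this adds have means under 1 normalized FPKM, where adding 0.1 FPKM understates differences. They include genes at the floor of the normalized table, whose part in this turn was not tested. With library medians made equal the members' medians were 0.11 in DOX and 0.12 in vehicle, against -0.021 and -0.024 over all genes, and 25 of 31 lay above 0 in each. No member was called on this scale either, and 5 of 31 in DOX and 4 of 31 in vehicle had an unadjusted p under 0.05, where 724 and 778 of all 11465 genes were below it. Because same-letter DOX and vehicle libraries go together, the 2 treatments are not independent repeats. The fit without the block treats all libraries as independent all the same. Its s.e. and p values for SE against WT thus rest on cultures A and B of each construct alone.

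By normalized values 17 of 31 members were lower in all 4 SE libraries than in all 4 WT libraries, against 65.2% of all genes, and 0 were higher, against 0.34%. By unnormalized values 10 of 31 were higher in all 4 SE libraries than in all 4 WT libraries, against 7.95% of all genes: ACAT2, HMGCS1, MVK, MVD, FDFT1, STARD4, ACSS2, SCD, FADS1 and FADS2. By the same values 2 were lower in all SE libraries, against 11.5% of all genes: TM7SF2 and ELOVL6. The direction of a member in SE thus turned on the scale for most of the list, and TM7SF2 and ELOVL6 were lower on both. When the 302 small RNA names were left out of the fit, 2 members fell in SE against WT in DOX, ELOVL6 (adjusted p = 0.0311) and TM7SF2 (adjusted p = 0.0411), among 4.66% of 11163 genes called. Without SE DOX culture B, 23 of 31 members fell in SE against WT in DOX, together with 72.3% of all genes, and without SE DOX culture A none was called.

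**Figure D3:**
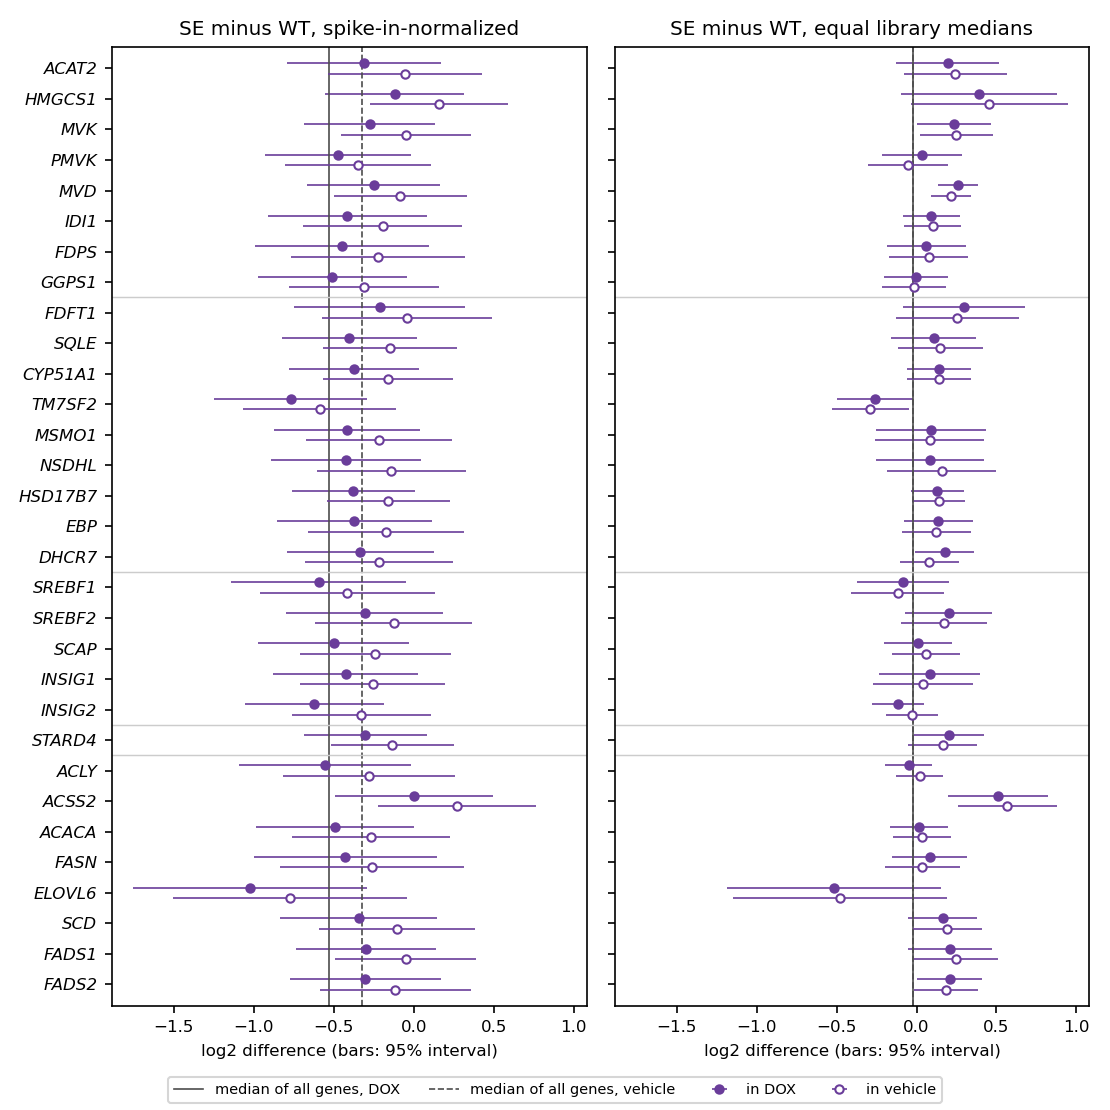
SE minus WT of the 31 genes on the log2 scale in DOX (filled) and vehicle (open), from the normalized table (left) and with equal library medians (right); bars are 95% intervals, and vertical lines mark the median of all genes in DOX (solid) and vehicle (dashed). ELOVL6 lies lowest in all 4 sets of points and ACSS2 highest, with member medians of -0.40 and -0.17 on the left and 0.11 and 0.12 on the right.

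The genes are now given by role, with unnormalized levels for cultures A and B in that order, then SE against WT on the normalized log2 scale from limma. In the mevalonate steps, ACAT2, which joins acetyl-CoA units, had 73.1 and 72.7 FPKM in SE DOX and 77.1 and 73.1 FPKM in SE vehicle, against 56.7 and 71.2 FPKM in WT DOX and 57.01 and 70.5 FPKM in WT vehicle. HMGCS1, which makes HMG-CoA and was singled out after its values were seen, had 39.7 and 34.2 FPKM in SE DOX and 40.3 and 34.9 FPKM in SE vehicle, against 23.8 and 32.8 FPKM in WT DOX and 23.2 and 31.98 FPKM in WT vehicle. MVK, the mevalonate kinase, had 6.89 and 7.17 FPKM in SE DOX and 6.67 and 7.14 FPKM in SE vehicle, against 5.64 and 6.24 FPKM in WT DOX and 5.34 and 6.15 FPKM in WT vehicle. All SE libraries were above all WT libraries for these 3 genes, and the WT A cultures were lowest. ACAT2 differed by -0.31 (s.e. 0.22, adjusted p = 0.205) in DOX and -0.055 in vehicle, HMGCS1 by -0.12 (s.e. 0.19, adjusted p = 0.577) in DOX and 0.16 in vehicle, and MVK by -0.28 (s.e. 0.18, adjusted p = 0.190) in DOX and -0.049 in vehicle. With equal library medians HMGCS1 stood at 0.39 (s.e. 0.20, adjusted p = 0.726) in DOX and 0.46 (s.e. 0.20, adjusted p = 0.686) in vehicle, the largest difference among the genes of these steps. MVD, which decarboxylates mevalonate pyrophosphate to isopentenyl pyrophosphate, ran between 14.4 and 14.9 FPKM in the 4 SE libraries and between 12.2 and 12.5 FPKM in the 4 WT libraries. Its cultures lay close to each other and the constructs did not overlap, and its difference with equal medians was 0.26 (s.e. 0.051, adjusted p = 0.405) in DOX and 0.21 (s.e. 0.051, adjusted p = 0.513) in vehicle.

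PMVK, the phosphomevalonate kinase, had 30.9 and 27.1 FPKM in SE DOX and 30.5 and 26.1 FPKM in SE vehicle, against 29.3 and 27.02 FPKM in WT DOX and 29.8 and 28.6 FPKM in WT vehicle. IDI1 had 100.4 and 97.7 FPKM in SE DOX and 103 and 99.6 FPKM in SE vehicle, against 88.02 and 98.03 FPKM in WT DOX and 91.5 and 97.01 FPKM in WT vehicle. FDPS had 124 and 137 FPKM in SE DOX and 134 and 132 FPKM in SE vehicle, against 118 and 132 FPKM in WT DOX and 117 and 137 FPKM in WT vehicle. SE and WT libraries overlapped for PMVK, IDI1 and FDPS, and PMVK was higher in the A cultures of both constructs. GGPS1, which makes geranylgeranyl pyrophosphate for protein prenylation, had 8.91 and 9.07 FPKM in SE DOX and 8.83 and 9.10 FPKM in SE vehicle, against 9.28 and 8.69 FPKM in WT DOX and 9.60 and 8.39 FPKM in WT vehicle. Its SE libraries lay within the range of its WT libraries. On the normalized scale in DOX, GGPS1 differed by -0.51 (s.e. 0.21, adjusted p = 0.0768) and PMVK by -0.47 (s.e. 0.20, adjusted p = 0.0794), the 2 lowest unadjusted p values of these steps, and IDI1 by -0.42 and FDPS by -0.45. With equal medians GGPS1 was at -0.00085 in DOX and -0.014 in vehicle, so its normalized difference was that of the library medians.

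In the steps from farnesyl pyrophosphate to cholesterol, FDFT1, the squalene synthase, had 86.3 and 93.9 FPKM in SE DOX and 86.6 and 90.6 FPKM in SE vehicle, against 64.8 and 82.6 FPKM in WT DOX and 64.3 and 85.5 FPKM in WT vehicle. SQLE, which oxidizes squalene, had 34.5 and 32.5 FPKM in SE DOX and 34.7 and 33.7 FPKM in SE vehicle, against 28.01 and 34.2 FPKM in WT DOX and 28.6 and 33.03 FPKM in WT vehicle. CYP51A1, which strips a methyl group from lanosterol, ran between 17.5 and 19.2 FPKM in the 4 SE libraries and between 15.5 and 17.7 FPKM in the 4 WT libraries. FDFT1 was higher in all SE libraries, while SQLE and CYP51A1 overlapped, and for FDFT1 and SQLE the WT A cultures were the lowest. FDFT1 differed by -0.21 (s.e. 0.24, adjusted p = 0.425) in DOX, SQLE by -0.40 (s.e. 0.19, adjusted p = 0.0895) and CYP51A1 by -0.37 (s.e. 0.18, adjusted p = 0.0977). With equal medians the same genes stood at 0.30, 0.11 and 0.14 in DOX, above 0 in each case.

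TM7SF2, which reduces the double bond that CYP51A1 leaves, had 4.58 and 4.87 FPKM in SE DOX and 5.15 and 4.66 FPKM in SE vehicle, against 6.09 and 5.27 FPKM in WT DOX and 6.12 and 5.84 FPKM in WT vehicle. It was the only gene of these steps that was lower in all SE libraries in the unnormalized table, with the closest pair at 5.15 FPKM in SE vehicle A and 5.27 FPKM in WT DOX B. In the normalized table it had 3.29 and 4.45 FPKM in SE DOX and 4.67 and 4.74 FPKM in SE vehicle, against 7.73 and 5.63 FPKM in WT DOX and 7.79 and 6.49 FPKM in WT vehicle, again without overlap. Its difference was -0.77 (s.e. 0.21, adjusted p = 0.0765) in DOX and -0.59 (s.e. 0.21, adjusted p = 0.339) in vehicle. With equal medians it was -0.26 (s.e. 0.10, adjusted p = 0.726) in DOX and -0.29 (s.e. 0.10, adjusted p = 0.686) in vehicle, so it was below the typical gene on both scales without passing the threshold. Leaving out SE DOX B gave -0.98 in DOX, with an adjusted p of 0.0259 in limma, and leaving out SE DOX A gave -0.56, with an adjusted p of 0.336.

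MSMO1, the methylsterol oxidase, had 19.97 and 21.5 FPKM in SE DOX and 19.6 and 21.3 FPKM in SE vehicle, against 17.2 and 21.8 FPKM in WT DOX and 17.2 and 21.4 FPKM in WT vehicle. NSDHL had 19.01 and 21.5 FPKM in SE DOX and 19.3 and 20.3 FPKM in SE vehicle, against 17.2 and 20.97 FPKM in WT DOX and 15.7 and 19.8 FPKM in WT vehicle. HSD17B7, a reductase of the same demethylation, had 15.1 and 14.7 FPKM in SE DOX and 14.8 and 14.1 FPKM in SE vehicle, against 12.97 and 14.2 FPKM in WT DOX and 12.6 and 13.5 FPKM in WT vehicle. For MSMO1 and NSDHL the WT B cultures were within or next to the SE range and the WT A cultures below it, and HSD17B7 overlapped only at WT DOX B. EBP, a sterol isomerase, had 69.04 and 70.4 FPKM in SE DOX and 71.1 and 68.7 FPKM in SE vehicle, against 60.3 and 66.3 FPKM in WT DOX and 59.1 and 69.4 FPKM in WT vehicle. DHCR7 had 28.2 and 29.5 FPKM in SE DOX and 26.4 and 28.2 FPKM in SE vehicle, against 24.6 and 26.2 FPKM in WT DOX and 24.3 and 27.1 FPKM in WT vehicle. EBP and DHCR7 overlapped at WT vehicle B. On the normalized scale in DOX these 5 genes lay between -0.42 for NSDHL and -0.33 for DHCR7, with adjusted p from 0.0853 to 0.164 in limma, and in vehicle between -0.22 for DHCR7 and -0.14 for NSDHL. With equal medians they lay between 0.084 for NSDHL and 0.18 for DHCR7 in DOX.

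Among the SREBP regulators, SREBF2, whose product drives mainly cholesterol genes, had 52.5 and 45.00 FPKM in SE DOX and 50.9 and 43.9 FPKM in SE vehicle, against 44.2 and 40.1 FPKM in WT DOX and 43.1 and 40.7 FPKM in WT vehicle. SREBF1, whose product drives mainly fatty acid genes, had 11.6 and 12.99 FPKM in SE DOX and 11.5 and 12.9 FPKM in SE vehicle, against 14.2 and 11.9 FPKM in WT DOX and 13.9 and 12.4 FPKM in WT vehicle. SCAP had 21.3 and 23.5 FPKM in SE DOX and 21.9 and 23.6 FPKM in SE vehicle, against 21.4 and 22.9 FPKM in WT DOX and 20.4 and 22.99 FPKM in WT vehicle. SREBF2 was the most abundant regulator and was highest in the SE A cultures, SREBF1 was highest in the WT A cultures, and all 3 overlapped between constructs. SREBF1 differed by -0.59 (s.e. 0.25, adjusted p = 0.0768) in DOX and -0.42 in vehicle, SREBF2 by -0.31 (s.e. 0.22, adjusted p = 0.218) in DOX and -0.13 in vehicle, and SCAP by -0.50 (s.e. 0.21, adjusted p = 0.0777) in DOX and -0.24 in vehicle. With equal medians in DOX SREBF2 stood at 0.20, SREBF1 at -0.085 and SCAP at 0.0078. The SREBF2 promoter printed above is the member window with the SREBP consensus.

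INSIG1, itself a target of SREBP in sterol feedback, had 29.9 and 31.2 FPKM in SE DOX and 30.7 and 30.7 FPKM in SE vehicle, against 25.8 and 31.98 FPKM in WT DOX and 26.6 and 33.2 FPKM in WT vehicle. INSIG2 had 7.79 and 8.46 FPKM in SE DOX and 8.38 and 8.49 FPKM in SE vehicle, against 8.53 and 9.04 FPKM in WT DOX and 8.68 and 8.41 FPKM in WT vehicle. INSIG1 was lowest in the WT A cultures, INSIG2 was lowest in SE DOX A, and both overlapped between constructs. INSIG2 differed by -0.62 (s.e. 0.19, adjusted p = 0.0765) in DOX and -0.33 (s.e. 0.19, adjusted p = 0.339) in vehicle, and INSIG1 by -0.43 (s.e. 0.20, adjusted p = 0.0917) in DOX and -0.26 in vehicle. With equal medians INSIG2 was at -0.11 in DOX and -0.029 in vehicle. STARD4, which carries cholesterol between membranes, had 14.6 and 14.4 FPKM in SE DOX and 14.4 and 13.9 FPKM in SE vehicle, against 11.4 and 13.7 FPKM in WT DOX and 12.1 and 13.01 FPKM in WT vehicle. It was higher in all SE libraries by unnormalized values, while the normalized difference was -0.30 (s.e. 0.17, adjusted p = 0.136) in DOX, with 0.21 at equal medians.

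In fatty acid synthesis, ACLY had 95.6 and 101 FPKM in SE DOX and 98.9 and 101 FPKM in SE vehicle, against 101 and 102 FPKM in WT DOX and 97.4 and 100.3 FPKM in WT vehicle. ACSS2, which makes acetyl-CoA from acetate and was singled out after its values were seen, had 4.59 and 4.39 FPKM in SE DOX and 4.81 and 4.12 FPKM in SE vehicle, against 3.38 and 2.78 FPKM in WT DOX and 3.01 and 2.83 FPKM in WT vehicle. ACACA, which makes malonyl-CoA, had 24.1 and 24.5 FPKM in SE DOX and 23.8 and 23.7 FPKM in SE vehicle, against 24.7 and 23.1 FPKM in WT DOX and 24.4 and 21.9 FPKM in WT vehicle. ACLY and ACACA overlapped between constructs, while every SE library was above every WT library for ACSS2, the lowest SE value being 4.12 FPKM and the highest WT value 3.38 FPKM. ACSS2 differed by 0.00019 (s.e. 0.22, adjusted p = 0.999) in DOX and 0.27 (s.e. 0.22, adjusted p = 0.370) in vehicle on the normalized scale, and by 0.51 (s.e. 0.13, adjusted p = 0.654) in DOX and 0.57 (s.e. 0.13, adjusted p = 0.470) in vehicle with equal medians. It was the member with the highest difference on both scales. ACLY differed by -0.56 (s.e. 0.24, adjusted p = 0.0796) in DOX and ACACA by -0.49 (s.e. 0.22, adjusted p = 0.0835), with -0.048 and 0.016 at equal medians.

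FASN, which builds palmitate, had 44.4 and 49.9 FPKM in SE DOX and 43.2 and 48.5 FPKM in SE vehicle, against 46.5 and 42.3 FPKM in WT DOX and 45.95 and 43.1 FPKM in WT vehicle. Its constructs overlapped, with SE highest in culture B and WT in culture A. SCD, which puts a double bond into saturated chains, had 84.02 and 83.5 FPKM in SE DOX and 83.8 and 84.5 FPKM in SE vehicle, against 69.6 and 80.1 FPKM in WT DOX and 68.9 and 78.6 FPKM in WT vehicle. FADS1, a desaturase of polyunsaturated chains, had 23.97 and 25.00 FPKM in SE DOX and 23.6 and 24.7 FPKM in SE vehicle, against 19.6 and 22.7 FPKM in WT DOX and 18.3 and 22.3 FPKM in WT vehicle. FADS2, which acts ahead of FADS1, had 50.5 and 51.9 FPKM in SE DOX and 51.03 and 50.1 FPKM in SE vehicle, against 42.2 and 46.2 FPKM in WT DOX and 41.3 and 47.9 FPKM in WT vehicle. By these unnormalized values the 3 desaturases were higher in all SE libraries and lowest in the WT A cultures. With equal medians in DOX SCD stood at 0.16 (s.e. 0.090, adjusted p = 0.726), FADS1 at 0.21 (s.e. 0.11, adjusted p = 0.726) and FADS2 at 0.21 (s.e. 0.083, adjusted p = 0.726). On the normalized scale they were at -0.35, -0.30 and -0.30 in DOX, and FASN at -0.43.

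ELOVL6, which lengthens palmitate toward stearate, was lower in SE in both tables and with equal medians, while the desaturases were higher in SE in the unnormalized table and with equal medians only. It had 27.8 and 23.1 FPKM in SE DOX and 28.04 and 23.6 FPKM in SE vehicle, against 44.9 and 29.1 FPKM in WT DOX and 44.7 and 28.6 FPKM in WT vehicle. In the normalized table it had 19.6 and 21.04 FPKM in SE DOX and 25.3 and 23.5 FPKM in SE vehicle, against 55.7 and 30.7 FPKM in WT DOX and 56.3 and 31.04 FPKM in WT vehicle. No SE library reached a WT library in either table, and the WT A cultures stood well above the WT B cultures. Its difference was -1.02 (s.e. 0.33, adjusted p = 0.0765) in DOX and -0.78 (s.e. 0.33, adjusted p = 0.339) in vehicle, the lowest of the list, with the widest error. With equal medians it was -0.51 (s.e. 0.28, adjusted p = 0.726) in DOX and -0.48 (s.e. 0.28, adjusted p = 0.686) in vehicle. Leaving out WT DOX A gave -0.59 in DOX and leaving out WT DOX B gave -1.45. In vehicle, leaving out WT vehicle A gave -0.35 and leaving out WT vehicle B gave -1.20. The direction held in each, while the size rested on the WT A cultures.

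The WT cultures also differed from each other, with ELOVL6 higher in culture A than in culture B in both tables. Most sterol genes were lower in culture A in the unnormalized table, and fewer were in the normalized table. ACAT2, HMGCS1, FDFT1, MSMO1, NSDHL and INSIG1 were lower in culture A in both tables and both treatments. The normalized log2 ratio of HMGCS1 was -0.23 with DOX and -0.25 with vehicle. By normalized levels 6 of 8 mevalonate and 5 of 9 squalene to cholesterol genes were higher in WT culture A with DOX. The members' median log2 ratio of culture A over culture B was there 0.10 with DOX and 0.11 with vehicle, against 0.24 and 0.21 over all genes without small RNA names. The values that follow are log2 ratios of culture A over culture B in the unnormalized table, with 1 library on each side and therefore no test. Medians and counts were taken after adding 0.1 FPKM to each level, and ratios of single genes without it. In WT cells the members' median was -0.13 with DOX and -0.11 with vehicle, against -0.0032 and -0.0013 over all genes without small RNA names, and 22 and 20 of 31 members lay below those. The squalene to cholesterol genes had medians of -0.19 and -0.21, the mevalonate genes -0.15 and -0.14, and the fatty acid genes 0.036 and 0.021. Ratios larger than 0.25 in either direction were found for 10 of 31 members with DOX (32.3%) and 8 with vehicle (25.8%), against 23.8% and 22.5% of all genes, so the number of large ratios was near the background. SREBF1 with DOX lay at the limit, just under it with 0.1 FPKM added and just over it without. In SE cells the members' medians were -0.027 with DOX and -0.0021 with vehicle, and 1 and 0 members passed 0.25, against 18.8% and 17.01% of all genes.

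HMGCS1 had the lowest ratio in WT cells, at -0.47 with DOX and -0.47 with vehicle, and in SE cells it was at 0.22 with DOX and 0.21 with vehicle. FDFT1 was at -0.35 with DOX and -0.41 with vehicle in WT cells and at -0.12 with DOX and -0.066 with vehicle in SE cells. ACAT2 was at -0.33 with DOX and -0.31 with vehicle in WT cells. MSMO1, NSDHL, INSIG1 and SQLE were lower in WT culture A as well, between -0.34 and -0.21 in both treatments. ELOVL6 had the highest ratio, at 0.63 with DOX and 0.64 with vehicle in WT cells, and at 0.26 with DOX and 0.25 with vehicle in SE cells. SREBF1 was also higher in WT culture A, at 0.25 with DOX and 0.16 with vehicle, and in SE cells it was at -0.17 with DOX and -0.17 with vehicle. FASN was at 0.14 with DOX and 0.092 with vehicle in WT cells and at -0.17 with DOX and -0.17 with vehicle in SE cells. HMGCS1, SREBF1 and FASN thus had opposite signs in the 2 constructs, and ELOVL6 had the same sign. Letters do not pair SE with WT cultures, so these matches would turn if the letters of 1 construct were swapped. HMGCS1 levels in WT culture B, at 32.8 and 31.98 FPKM, were nearer to the lowest SE level of 34.2 FPKM than to WT culture A.

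**Figure D4:**
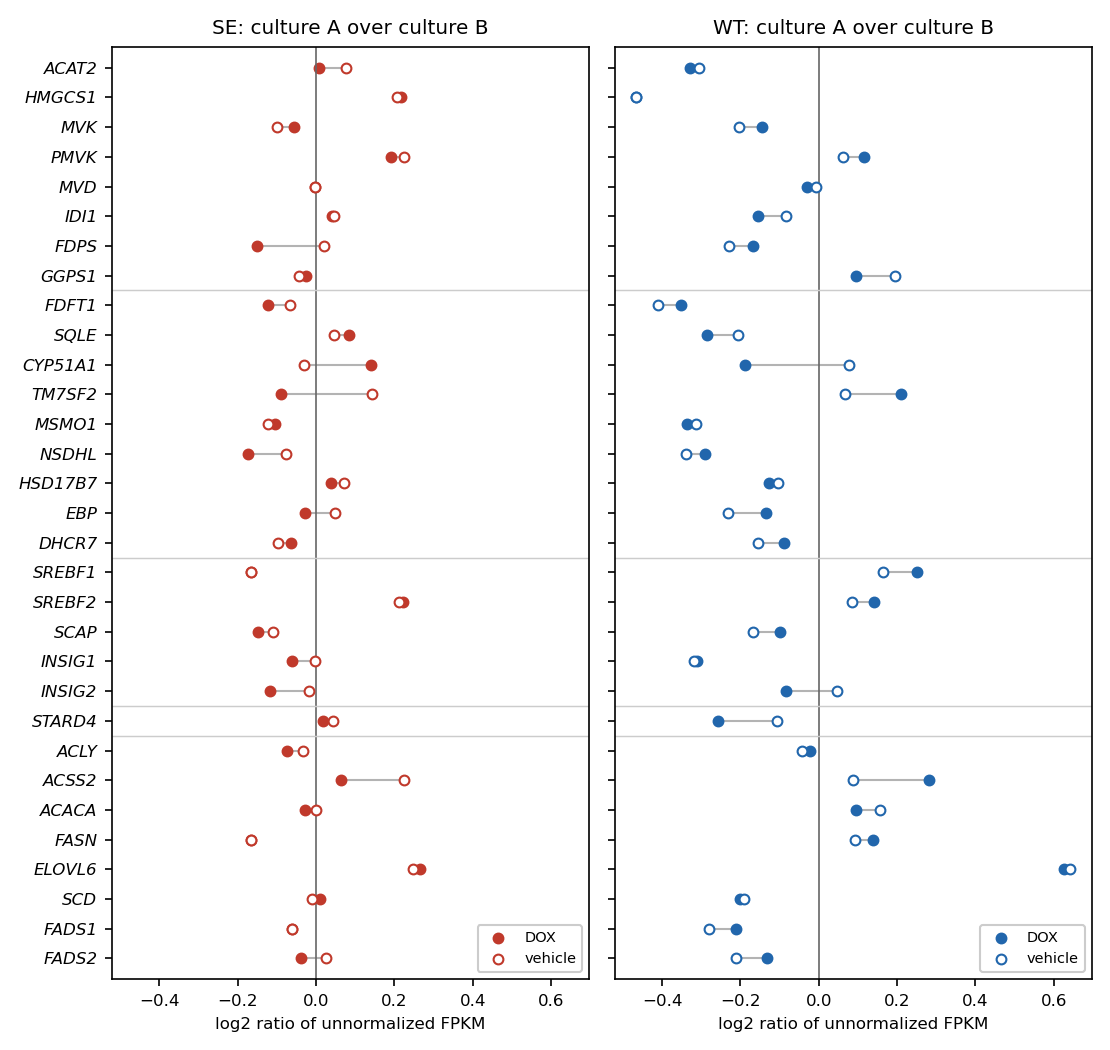
Culture A over culture B of the 31 genes as log2 ratios of unnormalized FPKM in SE (left) and WT (right), with DOX filled and vehicle open. In WT, HMGCS1 lies at -0.47 with both treatments and ELOVL6 at 0.63 with DOX and 0.64 with vehicle; in SE the ratios lie between -0.17 and 0.26.

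The neighbouring pathways were read from lists of other genes, and none of their members was called in the fit without the block. Among other sterol synthesis genes, LBR, a sterol reductase of the nuclear envelope, stood at -0.48 (s.e. 0.24, adjusted p = 0.102) in SE against WT in DOX. Of 16 genes of sterol uptake, storage and efflux 14 were tested, with a median of -0.51 in DOX and 10 of 14 above the median of all genes. SOAT1, which esterifies cholesterol, was at -0.52 (s.e. 0.17, adjusted p = 0.0765), and NPC1, which exports cholesterol from lysosomes, was at -0.51 (s.e. 0.17, adjusted p = 0.0765). All 9 genes of SREBP proteolysis and sterol-dependent degradation were tested, with a median of -0.51 and 5 of 9 above that of all genes, and their lowest unadjusted p values belonged to RNF139, a ubiquitin ligase (-0.50), and MBTPS2, the SREBP protease of the membrane plane (-0.66).

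All 13 genes of prenylation, dolichol and ubiquinone synthesis were tested, with a median of -0.58 in DOX and 3 of 13 above the median of all genes. PDSS2 was at -0.69 (s.e. 0.21, adjusted p = 0.0765) and COQ2 at -0.63 (s.e. 0.21, adjusted p = 0.0765), both of the ubiquinone branch. Of 29 other fatty acid genes 21 were tested, with a median of -0.56 and 10 of 21 above the median of all genes. ACSL1 was at -0.67 (s.e. 0.16, adjusted p = 0.0765) and ACSL4 at -0.71 (s.e. 0.20, adjusted p = 0.0765), both of which activate fatty acids to their CoA esters. With equal medians in DOX the median was -0.0057 for uptake, storage and efflux, -0.000082 for SREBP proteolysis and degradation, -0.075 for prenylation, dolichol and ubiquinone and -0.053 for the other fatty acid genes. All 4 medians lay below the 0.11 of the 31 genes, and this difference was not tested.

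With the culture letter as a block, genes of these lists that fell with DOX in SE, where 14.5% of all genes were called, included NPC1 (-0.27), ERLIN2 (-0.27), PGGT1B (-0.28), RABGGTA (-0.27), PDSS1 (-0.34) and ACSS1 (-0.30). ERLIN2 takes part in sterol-dependent degradation in the endoplasmic reticulum, PGGT1B and RABGGTA are prenyltransferase subunits, PDSS1 makes the ubiquinone side chain and ACSS1 activates acetate in mitochondria. Their values lay close to the -0.24 of the median gene.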

How the data were processed

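RNA of 8 NALM6 libraries was measured. The authors deposited an unnormalized and a normalized FPKM table of 23713 rows, 92 of them spike-ins. The genome build hg19 and the tools HISAT and Cufflinks 2.0.0 are named per the submitters' processing notes. How values were normalized is not stated there, and depth is unknown. Values of genes with near-identical copies (FDPS and HSD17B7 have pseudogenes) and of overlapping genes are uncertain. Groups and letters come from the labels.

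Tests used log2(normalized FPKM + 0.1), where folds of low genes are understated, over 11465 genes with a mean of at least 1. limma 3.58.1 (R 4.3.3, trended empirical Bayes) estimated 4 group means with pooled spread; p-values were adjusted by Benjamini-Hochberg, threshold 0.05, and the procedure was checked on simulated data. With 2 libraries a group, p-values measure the spread between these libraries, which may be technical. Deviations of same-letter DOX and vehicle libraries correlated over genes (r = 0.739 in SE, 0.767 in WT), so letters pair DOX with vehicle; SE with WT did not (0.0443 in DOX, 0.0325 in vehicle). Every member was named; library values went to members called under any alternative, the 2 of smallest p and the highest per role, and others were chosen after their values were seen. Some genes that the rule selects from the other lists are not reported here. The members and lists were chosen with earlier results of these data known. Figures used matplotlib 3.10.9.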

Additional observations from a re-analysis of the deposited data

How the results depend on the processing

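No member was called in the starting fit of 4 group means, so it held no called direction that an alternative could reverse. With equal library medians the sign changed for 17 of 31 members for DOX in SE. For SE against WT it changed for 24 in DOX and 23 in vehicle. Members were called only in the settings named here, each with the sign it had in the starting fit. With the replicate block 2 members were called for DOX in SE, and with small RNA names left out 2 for SE against WT in DOX. With the replicate block and small RNA names left out, added after seeing the data, 3 were called (ELOVL6, TM7SF2 and INSIG2). These 3 were for SE against WT in DOX, where that fit called 1656 of 11163 genes. Letters do not pair SE with WT, so the block there rests on shared letters only. Leaving out 1 library in turn gave 0 to 23 members called for SE against WT in DOX and 0 in every other comparison, with medians from -0.43 to -0.036 for DOX in SE, -0.077 to 0.045 for DOX in WT, -0.22 to -0.028 over both constructs, -0.40 to -0.025 for the difference of the effects, -0.56 to -0.19 for SE against WT in DOX and -0.25 to -0.11 in vehicle. In the unnormalized table the medians were 0.013 for DOX in SE, 0.0038 over both constructs, -0.0095 for the difference, and 0.11 in DOX and 0.12 in vehicle for SE against WT. With equal library medians, with or without the replicate block (the blocked form added after seeing the data), they were 0.0078, -0.00092, -0.0074, 0.11 and 0.12. With small RNA names left out and medians equal, with or without the replicate block, they were 0.015, 0.0046, -0.0044, 0.11 and 0.12. The shift of all library medians shows in these changes, since the equal-median fits take it out by construction. A pseudocount of 1, no filter on low values, spike-in scaling of the unnormalized table and a fit to the compared groups alone moved no count of members called and no median of the members by more than the spread between libraries. With no filter the median of all genes moved to -0.22 in DOX and -0.090 in vehicle for SE against WT. Depth is unknown, so limits from counting were not tested.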
